A study of Mus musculus with 48 samples.

Results

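This account sets 2 control states of a mouse embryonic stem cell line against each other: cells given a scrambled shRNA and cells given DMSO. The libraries were chosen by their labels alone, 2 of scrambled shRNA and 2 of DMSO, and they are 4 of the 8 nascent RNA libraries and of the 48 samples in all, of which 40 are chromatin immunoprecipitation samples that were not analysed here. The line, TCF2.2, is a 2i-derived embryonic stem cell line of C57BL/6 strain kept without serum in 2i medium, and both groups share it. The DMSO cells, labelled BRG1 WT, received the solvent DMSO for 3 h as the control for the inhibitor BRM014. The scrambled shRNA cells, labelled Chd4 WT, were transduced with a lentivirus carrying a scrambled shRNA, the control for an shRNA against Chd4, and then spent 24 h in 2i medium with puromycin at 1.5 µg/mL. The study used each group as the control of another comparison, so a direct comparison of both shows how far the control states lie apart. Transduction, puromycin, hours in treatment and any difference in when or how the libraries were prepared go together in this design and cannot be told apart. The labels name no batch or date and call the libraries biological duplicates without saying more of their source.

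Nascent RNA is the RNA made during a short labelling pulse. Here the pulse was 500 µM 4-thiouridine, given to both groups for 5 min, after which streptavidin drew the biotin-tagged new RNA out of the total, so the counts follow synthesis more than the stock of stable RNA. A lentivirus inserts its cargo into the genome, a scrambled shRNA enters the RNA interference machinery without an intended target, and puromycin stops protein synthesis in cells that do not express the resistance gene. In 2i medium, inhibitors of the MEK and GSK3 kinases hold mouse embryonic stem cells in the naive state.

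The scrambled libraries, with columns numbered r1 and r3, held 12026026 and 11298835 gene counts, and the DMSO libraries r1 and r2 held 17128981 and 16813866. Rows of ribosomal RNA sequence took 57.8% ± 2.47 of the counts in the scrambled and 44.8% ± 1.48 in the DMSO libraries (SD, n = 2 each). Background was read from 1971 genes of olfactory and vomeronasal receptors, proteins of sensory neurons, and over the exons of the whole file it amounted to 1.80% ± 0.488 and 2.07% ± 0.0566 of the counts. ERCC RNAs, synthetic RNAs added in a fixed amount per cell, gave 193 ± 0.345 gene counts per ERCC count in the scrambled and 108 ± 7.69 in the DMSO libraries, a log2 ratio of 0.84 (exact two-sided permutation test, p = 0.333, the smallest that 2 against 2 allows). Without the ribosomal RNA rows the ratios were 81.3 ± 4.60 and 59.5 ± 5.83 (log2 0.45, exact p = 0.333). Both scrambled libraries lay above both DMSO libraries in each of these ratios. When TMM scaling was applied among the ERCC RNAs first, the log2 ratios became 0.33 and -0.06, so the sign of the second depended on the scaling. The DMSO libraries then differed widely between themselves (141 ± 67.8 for all gene counts). All further values are therefore relative to other expressed genes and say nothing of the amount of RNA per cell. On the ERCC totals the log2 fold changes of tested genes were higher by a median of 0.46, and on the TMM-scaled ERCC totals the median shift was -0.16. Because the libraries are bulk samples, fewer cells of a type and less RNA per cell cannot be told apart.

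Chd4 and Smarca4 are the genes targeted in the other arms of the study and in neither control group, so their levels here check no label. Chd4 (chromosome 6, 125095981 to 125130591, mm10), the ATPase of the NuRD complex, stood at 89.7 and 69.1 normalised CPM (counts scaled to the library's size) in the scrambled libraries r1 and r3 and at 45.4 and 59.3 in DMSO r1 and r2. The scrambled values lay above both DMSO values, with a log2 difference of 0.60 ± 0.16 (SE, 2 libraries a group, edgeR adjusted p = 0.0119). That call ended without scrambled r1 (0.41) and without DMSO r1 (0.42). Smarca4, which encodes BRG1, overlapped between the groups, with 65.3 and 47.8 against 39.0 and 51.1 (0.33 ± 0.16, adjusted p = 0.194), and was called only without DMSO r2 (0.54). In the libraries labelled Chd4 shRNA, Chd4 stood at 106 and 114, above all other libraries, so its nascent RNA does not bear out that label. An shRNA acts on finished RNA, which these counts do not measure.

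Transcription differed between the control states for 688 genes higher and 645 lower with scrambled shRNA, out of 11242 genes counted at least 10-fold above background (edgeR quasi-likelihood test, Benjamini-Hochberg adjusted p under 0.05). These were 6.12% and 5.74% of the genes tested. Most differences were small: 56 of the genes were higher (0.498% of those tested) and 105 lower (0.934%) by a log2 fold change of at least 1. Over all tested genes the median absolute log2 difference was 0.189 between the single scrambled libraries and 0.215 between the single DMSO libraries, and 0.216 between the group means, which average 2 libraries each and so carry less library noise. The libraries of both groups did not overlap for 48.9% of the genes, called or not. All called genes given with library values below lacked overlap, so a lack of overlap adds no support to a call. The count rested in part on single libraries, with 250 higher and 228 lower without scrambled r1, 397 lower without scrambled r3 and 977 lower without DMSO r2.

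The largest rises with scrambled shRNA were of a small nucleolar RNA, a lipid enzyme, cytoskeletal genes and single genes of other roles. Snora73a (chromosome 4, 132352775 to 132352979), an H/ACA box small nucleolar RNA needed to process ribosomal RNA, stood at 44.8 and 38.7 normalised CPM in scrambled r1 and r3 against 13.1 and 11.2 in DMSO r1 and r2, 3.44-fold higher (log2 1.78 ± 0.16, adjusted p = 2.48e-08). Fasn (chromosome 11, 120805846 to 120824547), the fatty acid synthase, had 179 and 143 against 58.4 and 76.9 (1.25 ± 0.16, adjusted p = 5.23e-06). L1td1, an RNA-binding protein gene of pluripotent cells derived from a transposon, had 36.5 and 30 against 13.2 and 14.9 (1.24 ± 0.14). For each of these genes both scrambled libraries lay well above both DMSO libraries. The lack of overlap was required by the rule for choosing the genes. Rpl10l, a copy of a ribosomal protein gene, had 27.4 and 30.3 against 11.9 and 10.2 (1.39 ± 0.15). Myl4, a myosin light chain gene, had 15.8 and 17 against 8.70 and 6.83 (1.08 ± 0.17). Tet2, which encodes an oxidase of methylated cytosine, had 68.8 and 48.4 against 28.0 and 29.7 (1.02 ± 0.15), so its scrambled libraries differed more between themselves than its DMSO libraries did. The other rises chosen by the same rule were Snord118 (1.04), the fibronectin receptor subunit Itga5 (1.02), the centromere protein gene Cenpb (1.02), Prr12 (0.96), the cytoplasmic actin gene Actg1 (0.95), Wdr6 (0.93), the Pol III transcript Bc1 (0.92), the tubulin gene Tuba1a (0.91) and Rbmxl2 (0.91). Rpl10l, Rbmxl2, Tuba1a and Actg1 have close copies elsewhere in the genome, and how reads with several alignments were counted is not given, so their values are less certain. Wdr6 overlaps Dalrd3, and Tuba1a overlaps Gm49450.

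**Figure D1:**
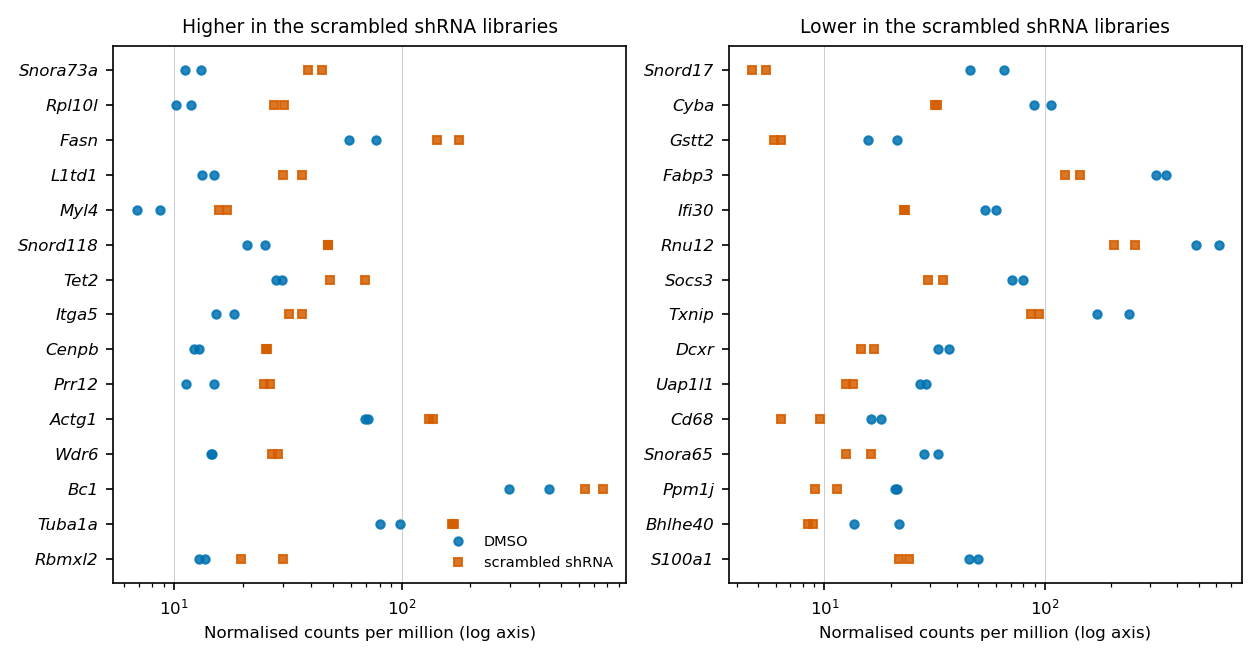
Normalised CPM (log axis) of the 15 largest rises (left) and 15 largest falls (right) in the 2 scrambled shRNA libraries (squares) and the 2 DMSO libraries (circles). The groups do not overlap for any of these genes, which the rule for choosing them required, and Snord17 shows the widest gap.

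The largest falls included small RNAs, genes of oxidant and fatty acid handling and genes of lysosomal proteins. Snord17 (chromosome 2, 144265979 to 144266216), a C/D box small nucleolar RNA, had 49 and 42 counts in scrambled r1 and r3 against 1042 and 818 in DMSO r1 and r2, and was 10.9-fold lower after normalisation (log2 -3.45 ± 0.19, adjusted p = 6.44e-13). It lies within Snx5 on the same strand, whose own nascent RNA was at 0.43 ± 0.14 (adjusted p = 0.0429), so the host moved in the opposite direction. Cyba (chromosome 8, 122424776 to 122432930), a subunit of the superoxide-producing NADPH oxidase, had 32.4 and 31.6 normalised CPM against 107 and 89.7 (-1.62 ± 0.14, adjusted p = 2.48e-08). Fabp3, a fatty acid binding protein gene, had 123 and 144 against 354 and 320 (-1.33 ± 0.15). Socs3 (chromosome 11, 117966079 to 117970047), the feedback inhibitor of the LIF and STAT3 pathway that supports self-renewal, had 29.5 and 34.5 against 70.9 and 79.6 (-1.23 ± 0.14, adjusted p = 1.01e-06). In these genes the scrambled libraries were close to each other. They lay below both DMSO libraries, which the rule for choosing the genes required. Txnip, an inhibitor of thioredoxin that responds to glucose, had 94.4 and 86.6 against 173 and 241 (-1.19 ± 0.16), and overlaps Gm15441 on the opposite strand. Ifi30, a thiol reductase of the lysosome, had 22.9 and 23.3 against 53.5 and 60.1 (-1.30 ± 0.14). Cd68, which encodes a lysosomal membrane glycoprotein best known in macrophages, had 9.57 and 6.38 against 16.3 and 18 (-1.10 ± 0.17). The remaining falls by the rule were Gstt2, a glutathione transferase gene (-1.59), Rnu12 of the minor spliceosome (-1.24), Dcxr (-1.14), Uap1l1 (-1.11), Snora65 (-1.09), the phosphatase gene Ppm1j (-1.05), the transcriptional repressor gene Bhlhe40 (-1.04) and S100a1, a calcium-binding protein gene (-1.04). All 30 of these rises and falls kept their call in each fit that left out 1 library. On the ERCC totals the 15 rises and 3 of the 15 falls (Snord17, Cyba and Gstt2) were called. On the TMM-scaled ERCC totals only Snord17 was.

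More genes of the lysosome were lower than higher with scrambled shRNA. Lysosomes break down what a cell takes up or recycles, and many of their genes carry the sequence CACGTG, the core of the CLEAR element bound by the factors TFEB and TFE3. Of 34 expressed lysosome and autophagy genes, 10 were lower and 2 higher (29.4% lower against 5.74% of all tested genes), and the list median was -0.29 on the log2 scale against 0.01 for all genes. On the ERCC totals that median was 0.18, where the median of all genes was 0.47. On the TMM-scaled ERCC totals it was -0.44, where that of all genes was -0.15. The list lay below other genes on both, but the sign of its median depended on the scaling. Without scrambled r1 6 of the genes were lower. Ctsa, a serine carboxypeptidase that also protects other lysosomal enzymes, had 39.2 and 40.1 normalised CPM in scrambled r1 and r3 against 64.3 and 80.5 in DMSO r1 and r2 (-0.87 ± 0.14, adjusted p = 0.000131). Ctsl, the protease cathepsin L, had 49.7 and 54.8 against 86.2 and 87.3 (-0.73 ± 0.14). Hexa, a subunit of hexosaminidase, had 16.7 and 22.7 against 32.5 and 37.0 (-0.82 ± 0.16). Ctsb, cathepsin B, had 62.1 and 65.3 against 98.6 and 105 (-0.68 ± 0.14). For these 4 enzymes the groups did not overlap, and their calls held in each fit that left out 1 library. Ctsa overlaps Pltp and Ctsb overlaps Fdft1 on the opposite strand. Neither neighbour was called (-0.21 and -0.05). The other lower members were Lamp2, Gabarapl1, Neu1, Npc2, Tfe3 and Mcoln1, and the higher ones were Gabarapl2 of autophagosome formation and Atp6v1h of the proton pump.

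The 250 bases before the RefSeq start (GRCm38.p6) of 3 of these enzymes are shown because they were among the lower members; capitals mark CACGTG, which reads the same on both strands.
Ctsa (chr2:164833523-164833772, plus strand; of 2 listed starts, the one whose window holds the motif): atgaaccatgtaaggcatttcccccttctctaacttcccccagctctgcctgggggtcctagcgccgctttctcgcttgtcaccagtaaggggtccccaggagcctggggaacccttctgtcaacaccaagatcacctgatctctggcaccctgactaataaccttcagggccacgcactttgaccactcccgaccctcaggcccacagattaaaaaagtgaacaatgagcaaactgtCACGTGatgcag
Ctsl (chr13:64370521-64370770, minus strand): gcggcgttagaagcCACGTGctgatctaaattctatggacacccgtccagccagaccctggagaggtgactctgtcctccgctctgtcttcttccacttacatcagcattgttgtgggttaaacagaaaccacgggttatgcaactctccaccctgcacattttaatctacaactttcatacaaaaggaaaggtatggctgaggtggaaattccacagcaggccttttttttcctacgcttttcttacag
Hexa (chr9:59539290-59539539, plus strand): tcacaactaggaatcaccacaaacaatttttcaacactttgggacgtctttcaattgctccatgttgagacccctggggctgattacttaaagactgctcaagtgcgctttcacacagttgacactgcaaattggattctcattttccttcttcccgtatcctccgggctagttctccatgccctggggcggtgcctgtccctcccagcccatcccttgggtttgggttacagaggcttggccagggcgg
CACGTG occurred once in the Ctsa window, in its last bases before the RefSeq start, and once in the Ctsl window, at the end far from it. Both windows lie inside the genes as the count file places them (Ctsa from 164832873, Ctsl up to 64370890). These 2 matches are therefore not upstream of those gene bounds. Only the Hexa window ends directly before the gene of the count file, which begins at 59539540. The Hexa window does not hold these letters. Of the 34 expressed members 27 had a RefSeq window, and 10 of them (37%) held CACGTG at any listed start, against 6.86% of all 27025 genes in the RefSeq table and 10.3% of the 6240 tested genes found there. Among the 9 lower members with a window 3 held it. These shares are descriptions, and a match does not show that a factor binds there.

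Several genes of sterol and fatty acid synthesis were higher. Of 29 expressed members 8 were higher and 0 lower (27.6% against 6.12% of all tested genes), with a median of 0.25. Besides Fasn, Scd2, a desaturase gene, had 239 and 205 normalised CPM in scrambled r1 and r3 against 112 and 144 in DMSO r1 and r2 (0.79 ± 0.15, adjusted p = 0.000978). Elovl6, a fatty acid elongase gene, had 47.2 and 37.8 against 26.8 and 31.5 (0.54 ± 0.14). The groups did not overlap for Fasn, Scd2 or Elovl6, but Elovl6 lost its call without scrambled r1 (0.39) or DMSO r1 (0.43). The counts were 2 higher and 1 lower without scrambled r1, 4 and 0 without DMSO r1, and 12 and 1 without DMSO r2. Also called higher were Acly, Sqle and Nsdhl.

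Targets of SRF and YAP that build the actin cytoskeleton were a smaller group with 4 of 16 expressed members higher and 0 lower (25% against 6.12%). Actg1 had 137 and 132 normalised CPM in scrambled r1 and r3 against 68.8 and 70.8 in DMSO r1 and r2 (0.95 ± 0.13). Ajuba, a LIM protein of cell junctions, had 24.6 and 20.5 against 12.9 and 12.9 (0.80 ± 0.15). Flna, the actin cross-linker filamin A, had 113 and 68.8 against 43.4 and 55.4 (0.88 ± 0.17). The groups did not overlap for these 3 genes, but Flna was highest in scrambled r1 and was not called without it (0.49). The list count was 2 without scrambled r1 and 7 without DMSO r2. Its median was 0.20, and it was 0.65 on the ERCC totals but -0.02 on the TMM-scaled ERCC totals.

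Replication-dependent histone genes, which are transcribed in S phase and whose RNAs have no poly(A) tail, were the list with the most higher members. Of 67 expressed genes 22 were higher and 1 was lower (32.8% against 6.12% of all tested genes), with a median of 0.37. Hist1h4c had 75.8 and 74.9 normalised CPM in scrambled r1 and r3 against 49.3 and 40.3 in DMSO r1 and r2 (0.75 ± 0.15, adjusted p = 0.00112). Hist1h3g had 122 and 114 against 73.9 and 63.4 (0.78 ± 0.17). Hist1h2bh had 23.7 and 18.1 against 14.5 and 10.5 (0.75 ± 0.18), a call that ended without scrambled r1 (0.55). These 3 genes were higher in both scrambled libraries, whereas Hist3h2a, a gene outside the large cluster, was lower with 9.35 and 8.06 against 15.5 and 13.2 (-0.72 ± 0.16). The count of higher histone genes moved widely with the libraries, to 3 without scrambled r1, 6 without DMSO r2 and 35 without DMSO r1, and it was 10 by DESeq2 and 3 with the default filter of edgeR. The histone genes are near-identical copies of each other, and how reads that fit several of them were counted is not given. Of 42 expressed genes of the G1/S transition and DNA replication 4 were higher (2 without scrambled r1) and 0 lower (2 without DMSO r1), among them Tyms of thymidylate synthesis (0.66 ± 0.13) and the cyclin gene Ccne2 (0.78 ± 0.16). The 4 higher G1/S genes were 9.52% of their list, against 6.12% of all tested genes. Of 38 G2/M genes edgeR and DESeq2 each called 0, and 4 were higher and 0 lower at an unadjusted edgeR p under 0.05. Without scrambled r3 3 were called higher and without DMSO r2 2.

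The promoters of the 3 higher histone genes with values above are given, with capitals for CCAAT, the box bound by NF-Y, or for its reverse complement ATTGG. The current RefSeq symbols are H4c3, H3c8 and H2bc9.
Hist1h4c (chr13:23698459-23698708, minus strand): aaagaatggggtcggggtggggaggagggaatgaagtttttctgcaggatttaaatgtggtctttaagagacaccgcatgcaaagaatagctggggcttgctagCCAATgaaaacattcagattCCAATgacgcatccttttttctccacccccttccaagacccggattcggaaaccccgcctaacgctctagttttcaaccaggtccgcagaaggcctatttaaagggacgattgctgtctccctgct
Hist1h3g (chr13:23535168-23535417, plus strand): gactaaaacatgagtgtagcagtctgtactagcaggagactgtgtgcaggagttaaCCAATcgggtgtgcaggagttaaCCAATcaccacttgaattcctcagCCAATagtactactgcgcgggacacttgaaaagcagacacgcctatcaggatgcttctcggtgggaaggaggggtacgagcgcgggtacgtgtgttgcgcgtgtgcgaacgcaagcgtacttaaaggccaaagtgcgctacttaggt
Hist1h2bh (chr13:23543445-23543694, minus strand): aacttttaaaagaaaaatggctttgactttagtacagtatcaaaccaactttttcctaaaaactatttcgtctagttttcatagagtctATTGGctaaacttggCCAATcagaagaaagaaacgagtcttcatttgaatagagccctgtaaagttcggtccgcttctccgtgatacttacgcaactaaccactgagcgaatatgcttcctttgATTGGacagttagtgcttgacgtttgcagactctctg
The windows held 2, 3 and 3 matches. Of 60 expressed histone genes with a window 49 (81.7%) held CCAAT on either strand, against 37.5% of all genes in the RefSeq table and 42.5% of those tested. Among the 20 higher members with a window 17 held it, and so did Hist3h2a, the lower member. The motif is thus common to histone genes whether called higher or not. These shares are descriptions, and a match does not show that a factor binds there.

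Single small noncoding RNAs were called in each direction. C/D box small nucleolar RNAs, which guide methylation of ribosomal RNA, had 3 of 79 expressed members higher and 7 lower, and H/ACA box and Cajal body RNAs, most of which guide pseudouridylation, had 4 of 46 higher and 6 lower. The shares were 3.80% and 8.86% for C/D box and 8.70% and 13% for H/ACA RNAs, against 6.12% and 5.74% of all tested genes, so the C/D box list was near the background. Snord118, which is the U8 RNA of ribosomal RNA processing, had 47.4 and 47.4 normalised CPM in scrambled r1 and r3 against 20.9 and 25 in DMSO r1 and r2. Snord21 had 5.57 and 4.70 against 10.5 and 11.2 (-1.08 ± 0.17), while its host Rpl5 was not called (-0.22). Snora65 had 12.5 and 16.2 against 28.3 and 32.9, and its host Rpl12 was at -0.42 ± 0.17 (adjusted p = 0.110). The groups did not overlap for any of these RNAs, and neither host was called. Snora34 (-0.90 ± 0.15) has nearly the same counts as the overlapping row Mir1291, and both lie inside Kansl2, which was not called (0.25). Snora73a and Snora73b (0.71 ± 0.14) both lie in the noncoding host Snhg3, which rose too, with 67.6 and 67.5 against 38.0 and 35.8 (0.87 ± 0.13). Rcc1, which spans that locus on the same strand, was not called (0.07). The count of lower C/D box RNAs was 2 without scrambled r3 and 3 without DMSO r1, and that of H/ACA RNAs 3 without either scrambled library and 10 without DMSO r2.

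Small nuclear RNAs of Pol II, a list that holds spliceosomal RNAs and also U7 and U3 RNAs, had 4 of 15 members higher and 4 lower (26.7% each), and 5 and 7 without DMSO r2. Rnu1a1, a U1 gene, had 14.5 and 17.3 normalised CPM in scrambled r1 and r3 against 8.63 and 5.65 in DMSO r1 and r2 (1.16 ± 0.17), and Rnu5g of U5 had 24.5 and 18.1 against 11.2 and 10.9 (0.95 ± 0.15). Rnu7, the U7 RNA that cuts histone transcripts at their 3′ end, had 4.34 and 4.48 against 1.69 and 1.46 (1.49 ± 0.23). The groups did not overlap for these 3 genes, each of which overlaps rows of other genes. Rnu12, the U12 RNA, went the other way, with 257 and 207 against 484 and 616. The other lower members were Rnu3a and the U1 genes Rnu1b1 and Rnu1b2, so U1 genes were called in both directions. Among 9 Pol III RNAs 2 were higher (22.2% against 6.12%) and 0 lower, with 5 higher without DMSO r1 and 1 without each of the other libraries. Bc1 had 638 and 767 against 445 and 296 (0.92 ± 0.19, adjusted p = 0.00207). Rpph1, the RNA of RNase P, had 421 and 443 against 324 and 270 (0.54 ± 0.17). It overlaps Ccnb1ip1, and its call ended without scrambled r1 (0.59), scrambled r3 (0.50) or DMSO r2 (0.42). Neat1, the scaffold RNA of paraspeckles, was lower, with 71.0 and 51.5 against 101 and 113 (-0.80 ± 0.15, adjusted p = 0.000725). Of 233 expressed microRNA rows 4 were higher and 5 lower, or 1.72% and 2.15%, below the 6.12% and 5.74% of all tested genes. The counts were 1 and 1 without scrambled r1, 3 and 2 without scrambled r3, 5 and 3 without DMSO r1, and 2 and 8 without DMSO r2.

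Most ribosomal protein genes lay slightly below the other genes with scrambled shRNA, and few were called. Of 88 expressed members 8 were lower and 2 higher (9.09% and 2.27%, against 5.74% and 6.12% of all tested genes). The middle of the list lay between -0.36 and -0.09 (quartiles) around a median of -0.23. That median was 0.25 on the ERCC totals and -0.35 on the TMM-scaled ERCC totals. Rpl14 had 323 and 346 normalised CPM in scrambled r1 and r3 against 634 and 616 in DMSO r1 and r2 (-0.90 ± 0.16, adjusted p = 0.000439). The 2 higher members, Rpl10l and Rpl39l (13.6 and 17.5 against 6.57 and 5.60, 1.35 ± 0.16), are copies of standard ribosomal protein genes. Without DMSO r2 37 members were lower, without DMSO r1 3, and without either scrambled library 1. Of 45 translation factor genes 6 were higher and 2 lower (13.3% and 4.44%). Of 49 genes of ribosome assembly in the nucleolus 3 were higher and 1 lower (6.12% and 2.04%). All tested genes had 6.12% higher and 5.74% lower. For translation factors the counts were 0 and 0 without scrambled r1, 2 and 1 without scrambled r3, 1 and 2 without DMSO r1, and 9 and 5 without DMSO r2. No nucleolar gene was called without scrambled r1 or by DESeq2, and 6 were higher without DMSO r2.

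The libraries carried the transcription of naive stem cells. All 19 naive pluripotency genes were expressed, with summed levels of 2790 and 2880 normalised CPM in scrambled r1 and r3 and 3270 and 2750 in DMSO r1 and r2, which overlap. Dppa5a had by far the most counts of them (16047 and 17091 against 38887 and 30944), so the sums say little of the other members. Pou5f1, which encodes OCT4, had 298 and 324 against 354 and 317 (-0.11 ± 0.14, adjusted p = 0.683, and 0.36 on the ERCC totals). Of the naive genes 5 were higher and 2 lower (26.3% and 10.5%, against 6.12% and 5.74% of all tested genes), with a median of 0.38. Dppa2, a DNA-binding regulator of germline genes, had 9.35 and 6.94 against 4.32 and 5.15 (0.78 ± 0.19). Dppa3, which protects maternal DNA methylation in the fertilised egg, had 8.13 and 8.95 against 14.0 and 13.1 (-0.67 ± 0.15). Nr0b1, a nuclear receptor gene, had 22.8 and 26.9 against 18.2 and 17.2 (0.49 ± 0.13). Nanog, Zfp42 and Prdm14 were the other higher members and Fgf4, the growth factor of these cells, was the other lower one (-0.52 ± 0.14). In the general list Lin28a, which blocks let-7 maturation, had 4.45 and 2.69 against 8.76 and 9.74 (-1.37 ± 0.20), and Sox2 had 46.9 and 66.6 against 79.6 and 98.5 (-0.65 ± 0.16). Of Dppa2, Dppa3, Nr0b1, Fgf4, Lin28a and Sox2, Lin28a kept its call in each fit that left out 1 library. Without scrambled r1 Dppa2 (0.56), Dppa3 (-0.59), Fgf4 (-0.53) and Sox2 (-0.41) were not called. Nr0b1 (0.36) and Fgf4 (-0.51) were not called without scrambled r3, nor Fgf4 without DMSO r2 (-0.38). The naive list had 2 members higher without scrambled r1 or scrambled r3 and 9 without DMSO r2.

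Markers of other cell types stayed mostly below the expression limit in both groups. It was passed by 0 of 14 mesoderm genes, 0 of 11 genes of the 2-cell-like state, 1 of 9 of definitive endoderm, 1 of 13 of neuroectoderm, 2 of 14 of primitive endoderm, 2 of 18 of fibroblasts or feeder cells (Fn1 and Vim), 4 of 13 of trophectoderm and 1 of 15 of the formative and primed states. The fibroblast list summed to 343 and 293 normalised CPM in scrambled r1 and r3 and 267 and 340 in DMSO r1 and r2, and its 16 members below the limit to 24.8 and 30.9 against 22.0 and 20.4. The mesoderm list summed to 10.0 and 14.1 against 11.5 and 10.8. Among the expressed members of these lists only Tubb3, a tubulin of neurons, was called, with 20.7 and 24.2 against 12.3 and 10.2 (1.00 ± 0.15, adjusted p = 3.74e-05). The 11 genes of the 2-cell-like state, a rare state resembling the early embryo, summed to 7.24 and 9.29 against 3.13 and 2.69, where background alone would give 3.04 and 4.25 against 3.41 and 3.11. Those sums were of 65 and 83 counts against 50 and 48, and the gene Gm4340 was at 0 in all 4 libraries. When genes below the limit were tested too, 2 of 10 were higher and 0 lower, with a list median of 1.30 with the default filter of edgeR and 1.26 with no filter. Of all genes tested there 392 of 35426 and 302 of 54064 were higher. How reads with several alignments were counted is not given, which matters for related members such as Zscan4c, Zscan4d and Zscan4f.

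Genes of the Nodal and Wnt pathways were called in the higher direction alone, in short lists. Nodal, the TGF beta ligand of the early embryo (chromosome 10, 61417972 to 61425338), had 20.0 and 20.6 normalised CPM in scrambled r1 and r3 against 8.19 and 8.12 in DMSO r1 and r2 (1.32 ± 0.14, adjusted p = 7.58e-07). Pcsk6, a protease that processes such ligands, had 31.6 and 27.7 against 16.6 and 19.7 (0.71 ± 0.14). Of the 8 expressed Nodal and TGF beta genes 3 were higher (37.5% against 6.12% of all tested genes) and 0 lower. DESeq2 and the 4 control libraries alone each called 2 higher. The third member, Smad7 (0.47 ± 0.15), was called in neither of these settings. The Nodal libraries were nearly equal within each group and far apart between them. A Wnt list, which holds parts of the pathway as well as targets, had 3 of 7 expressed genes higher (42.9%) and 0 lower. Tcf7l1, the repressor of the Wnt pathway's targets in these cells, had 23.3 and 17.3 against 13.5 and 12.9 (0.62 ± 0.16), Notum, a secreted inhibitor of Wnt, had 6.90 and 7.16 against 5.07 and 3.81 (0.67 ± 0.19), and Gsk3b, the kinase inhibited in 2i medium, had 30.6 and 22 against 16.6 and 20 (0.52 ± 0.16). The groups did not overlap for these genes, but without scrambled r1 none of the 7 was called (0.41, 0.71 and 0.27 for the 3 genes in that order). Notum was not called without scrambled r3 (0.64) or DMSO r2 (0.47) either, nor Gsk3b without DMSO r1 (0.39), and DESeq2 called 1 of the 7. Etv4, an ETS factor downstream of FGF and ERK signals, rose as well (11.5 and 10.6 against 6.32 and 6.55, 0.78 ± 0.16). In the LIF and STAT3 list of 14 genes Socs3 fell and Bcl3, an atypical inhibitor of NF-kappaB, rose (0.66 ± 0.17, not called without scrambled r3, at 0.43), while leaving out DMSO r2 gave 5 higher members and leaving out DMSO r1 gave 2 lower ones. The 1 higher and 1 lower gene of the LIF list on all libraries were 7.14% of it each, near the shares of all tested genes. Among 12 immediate early genes, which answer growth signals first, 4 were lower and 2 higher. These were 33.3% and 16.7%, against 5.74% and 6.12% of all tested genes. The median was -0.38, with 0.08 on the ERCC totals and -0.59 on the TMM-scaled ERCC totals. The counts were 2 lower and 0 higher without scrambled r1, 0 higher without scrambled r3 and 2 lower without DMSO r2. Zfp36, which speeds decay of AU-rich RNAs, had 3.34 and 4.48 against 8.76 and 8.45 (-1.14 ± 0.19). Btg1, an antiproliferative gene, had 17.7 and 18.1 against 26.4 and 37.5 (-0.84 ± 0.16). Klf10 was lower too (-0.56 ± 0.15), but not without scrambled r1 (-0.56), scrambled r3 (-0.56) or DMSO r2 (-0.33), and Srf was higher (0.65 ± 0.18), but not without scrambled r1 (0.67) or scrambled r3 (0.64).

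Viral entry and drug exposure are classically read through interferon, stress and efflux genes. Of 41 interferon and antiviral genes in the file 15 were expressed, 5 of them lower and 2 higher (33.3% and 13.3%, against 5.74% and 6.12% of all tested genes), with a median of 0.02. Bst2, which tethers budding virus, had 96.7 and 106 normalised CPM in scrambled r1 and r3 against 171 and 146 in DMSO r1 and r2 (-0.64 ± 0.14, adjusted p = 0.00382). Ifitm3, which blocks viral entry, had 95.5 and 95.8 against 146 and 136 (-0.56 ± 0.14), Ifitm1 was at -0.53 ± 0.14 and the receptor subunit Ifnar2 at -0.79 ± 0.19. All 4 lost their call without scrambled r1 (-0.56 for Bst2, -0.55 for Ifitm3, -0.39 for Ifitm1 and -0.66 for Ifnar2), and the list then had 0 called, while without DMSO r1 4 were lower and 0 higher. The 26 members below the expression limit summed to 55.2 and 54.6 against 48.4 and 49.9. Of 27 DNA damage response genes edgeR and DESeq2 each called 0, and 1 was higher and 0 lower at an unadjusted edgeR p under 0.05. Among 25 p53 targets 2 were higher and 2 lower (8% each, near the share of all genes), and 5 were higher without DMSO r2. The stress list of 30 genes joins the integrated stress response to that for unfolded proteins. It had 1 higher and 1 lower member (3.33% each, below the shares of all tested genes). The higher one, Chac1, degrades glutathione and had 13 and 11.7 against 4.94 and 5.65 (1.22 ± 0.16, edgeR adjusted p = 7.71e-06). Without DMSO r2 5 members were higher. The lower member, Nupr1, was at -0.46 ± 0.14 and lost its call without scrambled r1 (-0.42), scrambled r3 (-0.49) or DMSO r1 (-0.44). Of 24 chaperone genes Hspa8 (358 and 380 against 197 and 226, 0.80 ± 0.15) and Hsph1 (0.85 ± 0.14) rose and 0 fell (1 without DMSO r1). The chaperone calls on all libraries were 8.33% of that list, near the 6.12% of all tested genes. Abcb1b, a drug efflux pump gene for which puromycin is a known substrate, had 27.7 and 26.4 against 18 and 18.3 (0.58 ± 0.13, edgeR adjusted p = 0.00519). It was among 4 higher (20% against 6.12%) and 0 lower of 20 transporter genes, with 2 higher without scrambled r1 and 2 higher and 2 lower without DMSO r1, and the other 3, Slc7a1, Slc38a2 and Abcg2, each lost their call without at least 1 library (0.42 and 0.51 for Slc7a1 and Slc38a2 without scrambled r1, 0.46 and 0.45 without DMSO r1, and 0.48 for Abcg2 without scrambled r3).

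**Figure D2:**
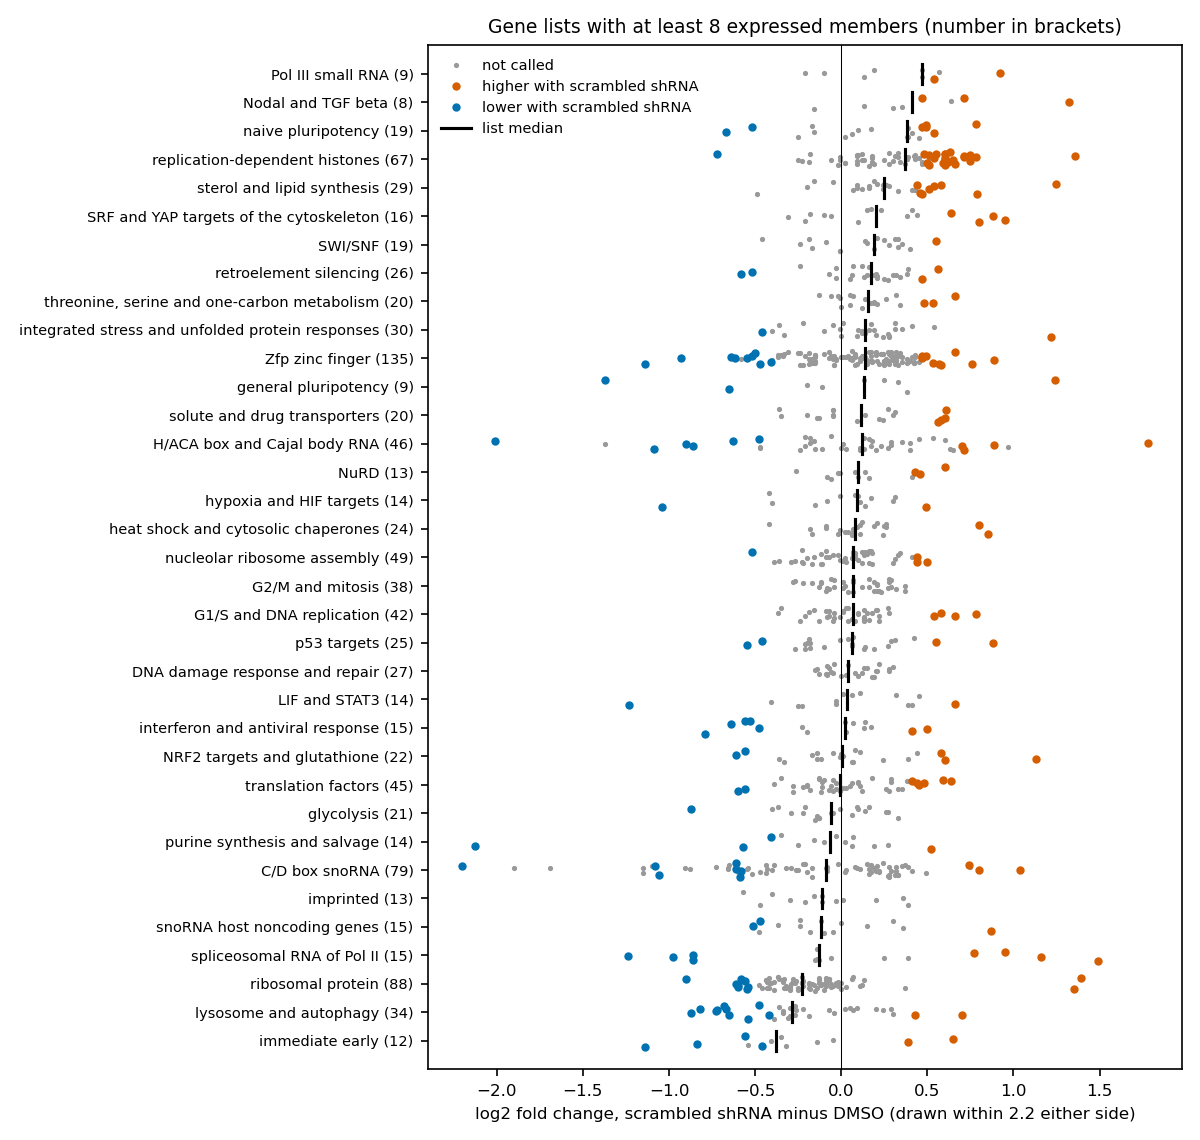
Log2 fold change of every expressed member of each list with at least 8 expressed members (points; orange higher, blue lower, grey not called) with the list median (black bar), relative to other expressed genes and without microRNAs; values past 2.2 are drawn at 2.2. Histone and lipid synthesis genes have most of their called members on the right, and lysosome genes on the left. The lysosome median was 0.18 on the ERCC totals and -0.44 on the TMM-scaled ERCC totals. Small RNA lists spread to both sides.

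The direction of the calls differed between classes of gene length. Of 4788 tested genes with over 3000 bases of exon 391 were higher and 144 lower, with a median of 0.08. Of 2380 genes over 200 and up to 1000 bases 74 were higher and 172 lower, with a median of -0.08, and genes over 1000 and up to 3000 bases had 173 and 267 of 2992. The 1082 genes of at most 200 bases had 50 and 62. The median exonic length of the expressed members was 4866 bases for lipid synthesis genes and 1730 for ribosomal protein genes, but also 530 for histone genes and 4541.5 for lysosome genes. The part that length or the larger ribosomal RNA share of the scrambled libraries has in these results was not tested, though with the ribosomal RNA rows left out 678 genes were higher and 646 lower.

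**Figure D3:**
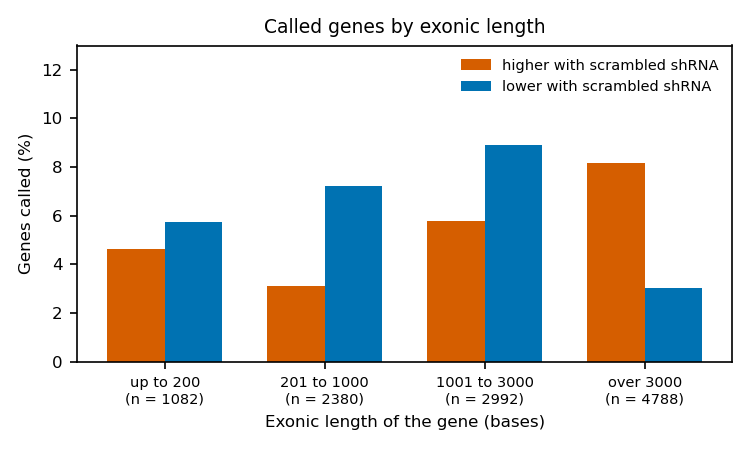
Share of tested genes called higher (orange) or lower (blue) with scrambled shRNA in 4 classes of exonic length in bases, with the number of genes in each class. Genes over 3000 bases were higher in 8.17% and lower in 3.01% of cases, and genes over 200 and up to 1000 bases in 3.11% and 7.23%.

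The remaining 4 nascent RNA libraries hold a comparison that shares no library with this one. Cells with a Chd4 shRNA also passed through lentivirus, puromycin and 24 h, and cells with BRM014 at 10 µM were also kept for 3 h without virus, but both perturbations enter that contrast too, and background took 12% and 13.6% of the libraries labelled Chd4 shRNA, in which Chd4 itself was not lower. It is therefore given as a description. In that contrast 52.9% of all tested genes were called. Of the 688 genes higher with scrambled shRNA 568 (82.6%) were above 0 in Chd4 shRNA minus BRM014, against 51.2% of all tested genes, and 428 were called higher there, where 27.0% of all genes were. Of the 645 lower genes 480 (74.4%) were below 0, against 48.8%, and 345 were called lower, where 25.9% of all were. Across the 11242 genes, which are not independent and share the fitted spread and their exonic length, Pearson's r was 0.29 and Spearman's rho 0.35. All 15 of the largest rises and 14 of the 15 largest falls kept their direction. Snord17 was at -2.17, Cyba at -1.32, Socs3 at -2.37 and Txnip at -1.36, and Snora73a was at 1.92, Fasn at 0.92 and Myl4 at 3.81. The exception was S100a1, at 0.13. Each of the 4 named lysosome enzymes was lower there as well (Ctsa -0.90, Ctsl -1.18, Hexa -0.94 and Ctsb -1.15), while Scd2 (0.19), Nodal (0.19), Etv4 (-0.03) and Nqo1 (-0.10) were near 0 and Neat1 (1.53) and Nr0b1 (-1.55) went the other way. The list medians there were -0.42 for lipid synthesis and -0.31 for naive genes, against 0.25 and 0.38 here, so their sign was opposite. Lysosome (-0.34), histone (0.16) and ribosomal protein genes (-0.24) had medians of the same sign in both.

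**Figure D4:**
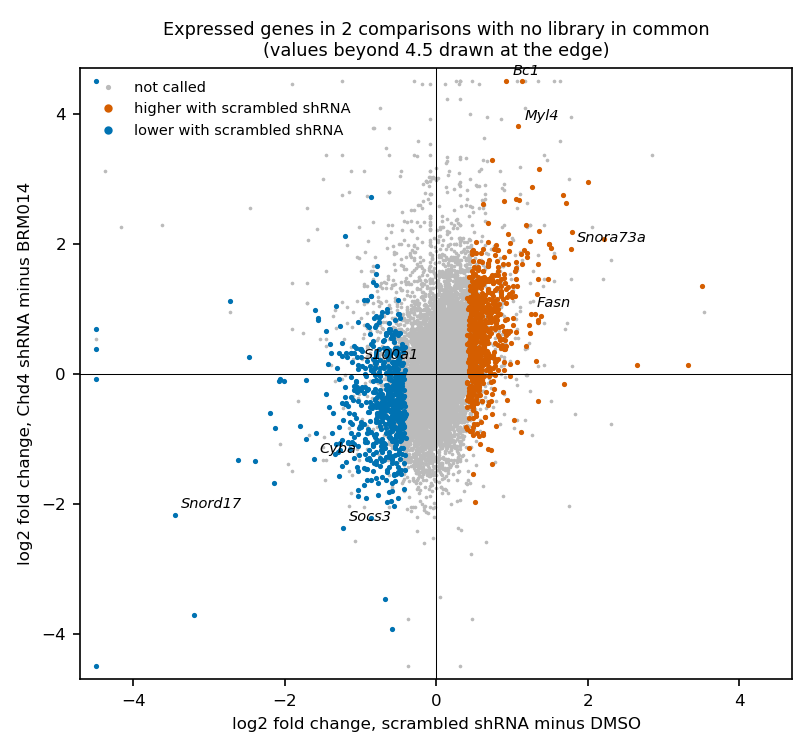
Log2 fold change of each tested gene in scrambled shRNA minus DMSO (horizontal) and in Chd4 shRNA minus BRM014 (vertical), which have no library in common; orange and blue mark genes called higher or lower in the first. Of the orange genes 82.6% lie above 0 on the vertical axis and of the blue genes 74.4% lie below it, and Bc1, at 5.20, is drawn at the upper edge.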

How the data were processed

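Nascent RNA counts were analysed for 2 scrambled shRNA and 2 DMSO libraries. The authors deposited raw counts of reads per gene for 55376 genes of mm10 and for 92 ERCC RNAs. The submitters' processing notes name Trim Galore 0.6.4, STAR 2.7.1a, featureCounts and edgeR 3.32.1. The strand counted and the treatment of reads with several alignments are not given in the sources used here. Groups came from the labels. The columns r1 and r3 (scrambled) match the sample titles' group, but r3 matches no title's number.

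All 8 nascent RNA libraries, with 1 coefficient per group and 4 residual degrees of freedom, were fitted with edgeR 4.0.16 in R 4.3.3 (quasi-likelihood F test, SE from the F statistic, Benjamini-Hochberg adjustment over all tested genes, adjusted p under 0.05). With 2 libraries a group, p-values measure the spread between these libraries. Genes were tested where their mean count in the 4 control libraries reached 10 times the receptor background for their exonic length, and TMM over those genes set the library sizes. Background is thus kept out of the scaling. Named genes were the 15 largest rises and falls among called genes above the median abundance with no overlap between the groups, without predicted, clone, pseudogene or ribosomal RNA rows, and up to 4 called members of a list by smallest p (Pou5f1 as an uncalled one). Members listed without values, overlapping neighbours, and Fn1, Vim and Snora73b were named after their values were seen. The genes and the 48 lists were chosen with earlier results of these data known. Promoter windows were RefSeq's (GRCm38.p6). Some called members of the lists are counted but not reported here by name. Other settings were DESeq2 1.42.0, ERCC scalings, other gene filters, the 4 libraries alone and each library left out in turn. The fit was tested on simulated data for this comparison (11242 genes): it recovered 36 of 67 changes of 1.5-fold, 65 of 67 of 2-fold and 65 of 66 of 4-fold, and called 7 unchanged genes. The simulated counts were independent between genes, with the spread fitted to these libraries, and changed genes were drawn above a minimum count. No shift shared by a whole library was simulated, so the 7 calls do not give the error rate in the real counts. Figures were drawn with matplotlib 3.10.9.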

Additional observations from a re-analysis of the deposited data

How the results depend on the processing

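The counts of 688 higher and 645 lower genes fell to 368 and 364 on the 4 libraries alone, 330 and 351 with DESeq2, and 397 and 375 for genes 30-fold above background. They were 723 and 981 at 3-fold above background, 392 and 911 with the default filter of edgeR and 302 and 995 with no filter. In the last 2 settings 35426 and 54064 genes were tested, and genes tested in both fits shifted by a median of -0.12 and -0.15. Of the calls there 30.1% and 23.3% were higher, against 51.6%, and the part of the shift in this was not tested. ERCC totals gave 521 and 14 (97.4% higher), and TMM-scaled ERCC totals 0 and 2 by edgeR (45 and 144 at an unadjusted p under 0.05). A minimum absolute log2 fold change of 1 left 56 and 105. Leaving out each library gave 250 to 1000 higher and 228 to 977 lower. Of 1333 called genes 449 kept their call without scrambled r1 and 785 to 1105 without each of the others.

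Of 135 called genes named by the rule, 68 were called in each of the 14 settings other than ERCC scaling and the fold minimum that tested them, and 71 in each fit without 1 library. ERCC totals ended 67 calls and turned Pou5f1 (0.36), Nupr1 (0.01), Adsl (0.04) and Epb41l4aos (0.01) positive. DESeq2 ended 26 calls, the 4 libraries alone 29, the default filter 34, no filter 41, 3-fold above background 10 and 6 libraries without Chd4 shRNA, a setting added after seeing the data, 11. The causes were not tested. Gene counts per ERCC count came to 0.84 as a log2 ratio (0.33 on TMM-scaled ERCC totals, 0.77 to 0.91 without each library in turn), and 0.45 without ribosomal RNA rows (-0.06, and 0.35 to 0.55). No paired analysis was possible because the columns of both groups share only 1 replicate number. With 2 libraries a group, changes near 1.5-fold were recovered only in part.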

Other observations

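Some metabolic and redox genes outside the groups described differed between the control states. Adssl1, an adenylosuccinate synthase of purine nucleotide synthesis, had 1.34 and 2.35 normalised CPM in scrambled r1 and r3 against 7.07 and 9.07 in DMSO r1 and r2 (log2 -2.13 ± 0.25, edgeR adjusted p = 1.13e-06). It was among 3 lower and 1 higher of 14 purine genes (21.4% and 7.14%, against 5.74% and 6.12% of all tested genes). On the 4 control libraries alone the counts were 1 and 0. Ldhb, a lactate dehydrogenase subunit, was lower, with 247 and 265 against 490 and 444 (-0.87 ± 0.15). It was the only call among 21 glycolysis genes (4.76%, below the share of all tested genes). Of 22 NRF2 targets and glutathione genes 3 were higher and 2 lower (13.6% and 9.09%), with 3 and 0 on the 4 control libraries alone. Srxn1, the sulfiredoxin that repairs peroxiredoxins, was among the higher ones, with 14.6 and 15.2 against 7.07 and 6.55 (1.13 ± 0.15). So was Nqo1, a quinone reductase gene, with 58.1 and 64.0 against 40.8 and 40.0 (0.60 ± 0.13). The calls of these 4 genes held in each fit that left out 1 library. Bnip3, a mitophagy receptor gene, was lower (-1.04 ± 0.23). Of the 14 hypoxia targets that include it 1 was lower and 1 higher (7.14% each, near the shares of all tested genes).

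Of 135 expressed zinc finger genes named Zfp 10 were higher and 9 lower (7.41% and 6.67%, near the 6.12% and 5.74% of all tested genes), with Zfp787 at -0.93 ± 0.16 and Zfp936 at 0.89 ± 0.15. Of 26 genes of retroelement silencing 2 were higher and 2 lower (7.69% each), with 0 and 0 without scrambled r1 and 4 and 2 without DMSO r2. Among 13 imprinted genes edgeR and DESeq2 each called 0, with 2 higher and 2 lower at an unadjusted edgeR p under 0.05. In the NuRD list 23.1% of the genes were higher and in the SWI/SNF list 5.26%, against 6.12% of all tested genes. The NuRD list had 3 of 13 higher (0 without scrambled r1 or DMSO r1) and the SWI/SNF list 1 of 19 (4 higher and 1 lower without DMSO r2), with 0 lower in either on all libraries. Without scrambled r1 1 Zfp gene was higher and 3 were lower, and without DMSO r2 22 were higher.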
